A study of Mus musculus with 12 samples.

Results

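The 30 genes described here are markers of astrocytes, chosen by name as an astrocyte list without its glutamate transporters, with earlier results of these data known. The array has a probe for 19057 named genes, and shares over all genes or probes given here cover those that were tested. The RNA came from the hippocampus of 12 male C57BL/6J mice, with 1 MouseWG-6 v2.0 BeadChip array per mouse. The 6 ethanol-exposed (EtOH) mice were carried by dams that drank ethanol between 0.5 and 8.5 dpc, and the 6 Control mice by dams given water. All mice were 12 weeks old when the hippocampus was taken, and the labels name no other treatment and no altered allele. The litter of each mouse is not given in the sources used here, so p-values measure the spread between these mice, of which some may be littermates.

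Astrocytes are the glial cells that clear potassium and transmitter from synapses, move water and ions at blood vessel end-feet, and pass metabolites to neurons. They form one network through gap junctions, store glycogen, and buffer zinc and copper with metallothioneins. *Gfap*, their intermediate filament gene, is the marker most used in the hippocampus, and it is read as a sign of reactivity when it is high.

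Of the 30 genes, 29 had at least 1 probe that carries their symbol, and *Clu* had none. These 29 genes had 45 probes, of which 35 probes of 27 genes were detected (detection p under 0.05, the chance that negative control beads give such a signal) on at least 6 of the 12 arrays and were tested. *Mlc1*, a membrane protein of end-feet, was detected in 2 EtOH and 1 Control mice, and *F3*, tissue factor, in none, so neither was tested. The other 8 untested probes were second or further probes of *Aqp4*, *Aldh1l1*, *Slc4a4*, *Vim* and *Gabrg1*. The defining markers *Gfap*, *Aqp4*, *Aldh1l1*, *Gja1*, *S100b* and *Sox9* each had a probe detected in 6 of 6 EtOH and 6 of 6 Control mice. Astrocytes are one of many cell types in this tissue, and in bulk RNA fewer cells of a type and less RNA per cell cannot be told apart.

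The arrays lay on 2 BeadChips, and each held 3 EtOH and 3 Control mice. Between 18729 and 20250 probes were detected in EtOH mice and between 18644 and 20268 in Control mice, and of the 45 astrocyte probes between 35 and 38 in EtOH mice and between 35 and 36 in Control mice. Of the 10 hippocampal neuron markers 8 were tested, among them *Prox1* of dentate granule cells and *Wfs1* and *Fibcd1* of CA1 pyramidal cells, each detected on all 12 arrays. Choroid plexus RNA set some mice apart from the rest. The mean log2 signal of 5 choroid plexus markers (*Ttr*, *Kl*, *Ecrg4*, *Clic6* and *Calml4*) was 9.71 in EtOH mouse 5, 11.30 in Control mouse 1 and 10.60 in Control mouse 3, against 6.30 to 7.72 in the other EtOH mice and 6.50 to 8.33 in the other Control mice. The counts over the astrocyte genes and over the other gene lists were therefore also made without these 3 mice (5 EtOH against 4 Control mice), a choice made after seeing the data.

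No astrocyte gene passed the multiple testing correction, but most lay slightly lower in EtOH mice. Of the 35 tested probes, 28 had a lower and 7 a higher mean log2 signal in EtOH mice than in Control mice. With the brightest probe taken for each gene, 22 of 27 genes were lower (81.5%, beside 46.2% of all tested genes), and the median log2 fold change (EtOH minus Control, as throughout) was −0.15, beside 0.01 over all 10835 tested genes. At an unadjusted p under 0.05 in limma, 7 probes of 5 genes were lower, which is 20% of the 35 probes beside 3.08% of all 19288 tested probes. None was higher, beside 3.36% of all. These 5 genes were *Metrn*, *Gfap*, *Mt2*, *Aldoc* and *Ttyh1*. At an adjusted p under 0.05 there was none, beside 0% of all probes, where the lowest adjusted p was 0.266. None passed a fold of 1.5 with an unadjusted p of at most 0.05, beside 0.13% of all.

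**Figure D1:**
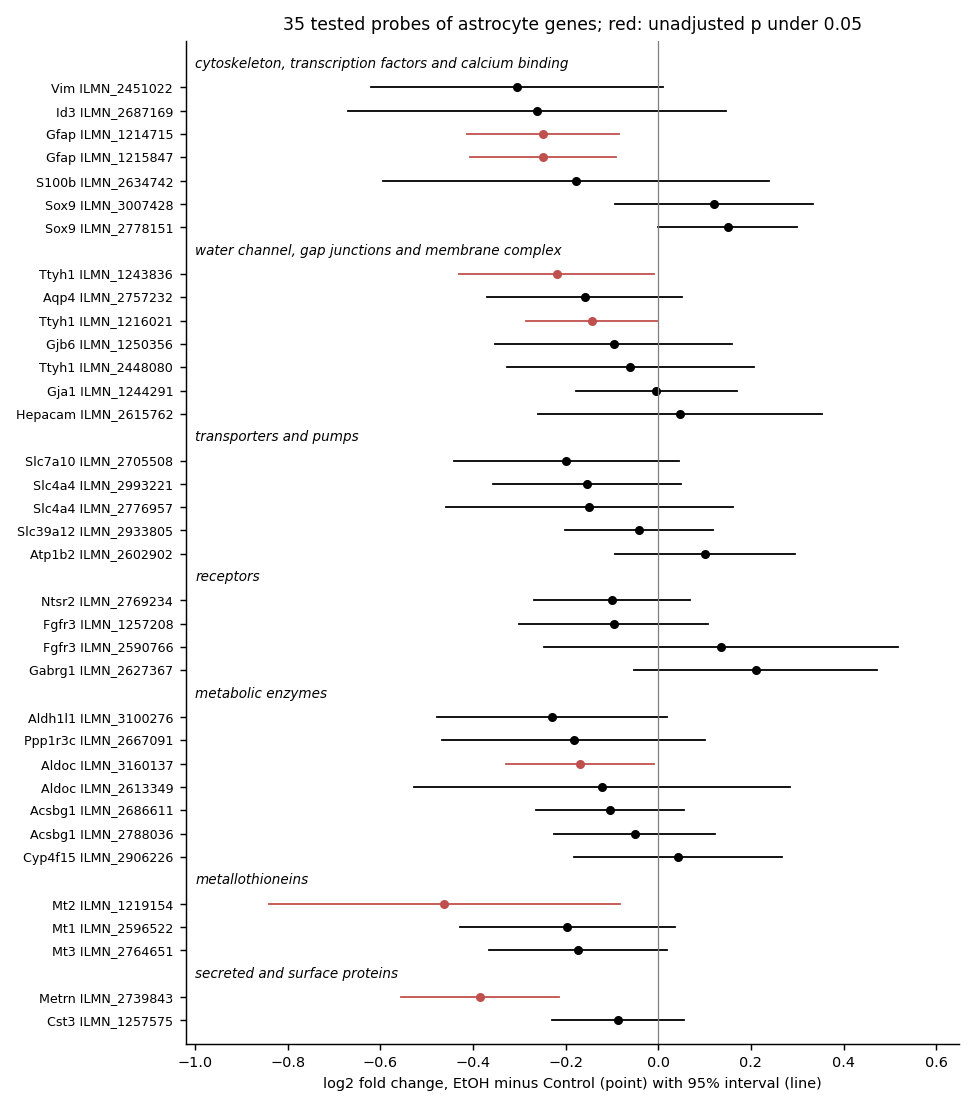
Log2 fold change (EtOH minus Control, x axis) of the 35 tested probes of astrocyte genes, grouped by the role of the gene, as points with 95% intervals from limma as lines. The 7 red probes, of *Gfap*, *Ttyh1*, *Aldoc*, *Mt2* and *Metrn*, have an unadjusted p under 0.05 and all lie below 0, and every other interval holds 0.

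The count moved with the processing and with single mice. The authors' normalized table gave 12 probes, 11 lower and 1 higher (*Sox9*), since *Aldh1l1*, *Mt1*, *Mt3* and *Vim* then came below 0.05, and no background correction gave 12 as well. That is 34.3% of the 35 probes beside 7.02% of all probes in either setting, against 20% beside 6.44% in the values reported. The count was 3 without EtOH mouse 1 (8.57% beside 5.65% of all), 4 without EtOH mouse 4 (11.4% beside 5.69%) and 4 without Control mouse 3 (11.4% beside 5.93%), and between 5 and 9 when any of the other 9 mice was left out. On chip 2 alone it was 1, which is 2.86% and below the 4.75% of all probes. Without the 3 mice high in choroid plexus markers it was 5 (14.3% beside 5.31%), with 27 probes lower and 8 higher. In that setting 22 of 27 genes were lower, beside 47.7% of all tested genes, and the median log2 fold change was −0.14. The list was drawn up with earlier results of these arrays known, so its count is not independent evidence of its direction.

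The lowest p of the list was that of *Metrn*, which encodes meteorin, a secreted protein that promotes glial differentiation and axon growth. At ILMN_2739843 the normalized log2 signal had a lowest, median and highest value of 10.76, 10.86 and 11.02 in EtOH mice and of 11.11, 11.28 and 11.46 in Control mice. Each EtOH mouse lay below each Control mouse. The means were 10.89 ± 0.11 in EtOH mice and 11.27 ± 0.13 in Control mice (SD, n = 6 each). This gave a log2 fold change of −0.38, a ratio of 0.766, with a standard error (SE) of 0.08. In limma *Metrn* had p = 0.000262 before and p = 0.545 after adjustment, and an exact permutation test of the difference, two-sided, gave p = 0.00216, the smallest that 6 against 6 arrays allow. With each mouse left out in turn, the log2 fold change of *Metrn* ran between −0.42 and −0.35.

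*Gfap* also separated the groups, at both of its probes. At ILMN_1215847 the lowest, median and highest log2 signals were 11.39, 11.53 and 11.65 in EtOH mice and 11.67, 11.73 and 11.93 in Control mice. At ILMN_1214715 they were 9.06, 9.27 and 9.32 in EtOH mice and 9.35, 9.45 and 9.62 in Control mice. The gap between the highest EtOH and the lowest Control mouse was small at both probes, but no mouse crossed it. The log2 fold change was −0.25 at each (SE 0.07 and 0.08, unadjusted p = 0.0045 and p = 0.00562, adjusted p = 0.718 for both in limma), and the exact permutation test gave p = 0.00216 for both. Non-overlap with EtOH below was found at 3 astrocyte probes, those of *Metrn* and *Gfap*, which is 8.57% of the 35 beside 0.14% of all tested probes, and with EtOH above at 0, beside 0.124% of all. Leaving out the 3 mice high in choroid plexus markers cannot make separate groups overlap, so these 3 probes stayed apart by necessity. In that setting no other astrocyte probe joined them, and 0.783% of all probes did not overlap with EtOH below.

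The other cytoskeletal and regulatory genes did not all lie on the side of *Gfap*. *Vim*, which encodes vimentin, a filament protein shared with endothelial and ependymal cells, had a log2 fold change of −0.30 at ILMN_2451022 (SE 0.15, unadjusted p = 0.0573). *S100b*, a calcium-binding protein, had log2 signals of 5.55, 6.44 and 6.85 (lowest, median, highest) in EtOH mice and 6.22, 6.51 and 6.90 in Control mice. Its groups overlapped widely, and it had the largest spread within groups of the tested astrocyte probes, with a residual SD of 0.39. Its probe was dim, with an intensity before normalization of at most 214.7 on arrays with medians of 94.7 to 127.5. *Id3*, an inhibitor of basic helix-loop-helix factors that responds to BMP signals, had a log2 fold change of −0.26 (SE 0.19, unadjusted p = 0.19).

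*Sox9*, the transcription factor that specifies the astrocyte lineage, lay on the other side. At ILMN_2778151 its lowest, median and highest log2 signals were 11.81, 11.85 and 12.03 in EtOH mice and 11.68, 11.71 and 11.84 in Control mice. Each EtOH mouse lay above the Control median, and the ranges met only at the 2 highest Control mice. The log2 fold change was 0.15 (SE 0.07, unadjusted p = 0.0505, exact permutation p = 0.0216), and the p fell below 0.05 in 8 of 14 other settings that kept all mice, used 1 chip or left out the 3 mice named above. The second probe, ILMN_3007428, had a log2 fold change of 0.12 (SE 0.10, unadjusted p = 0.251).

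**Figure D2:**
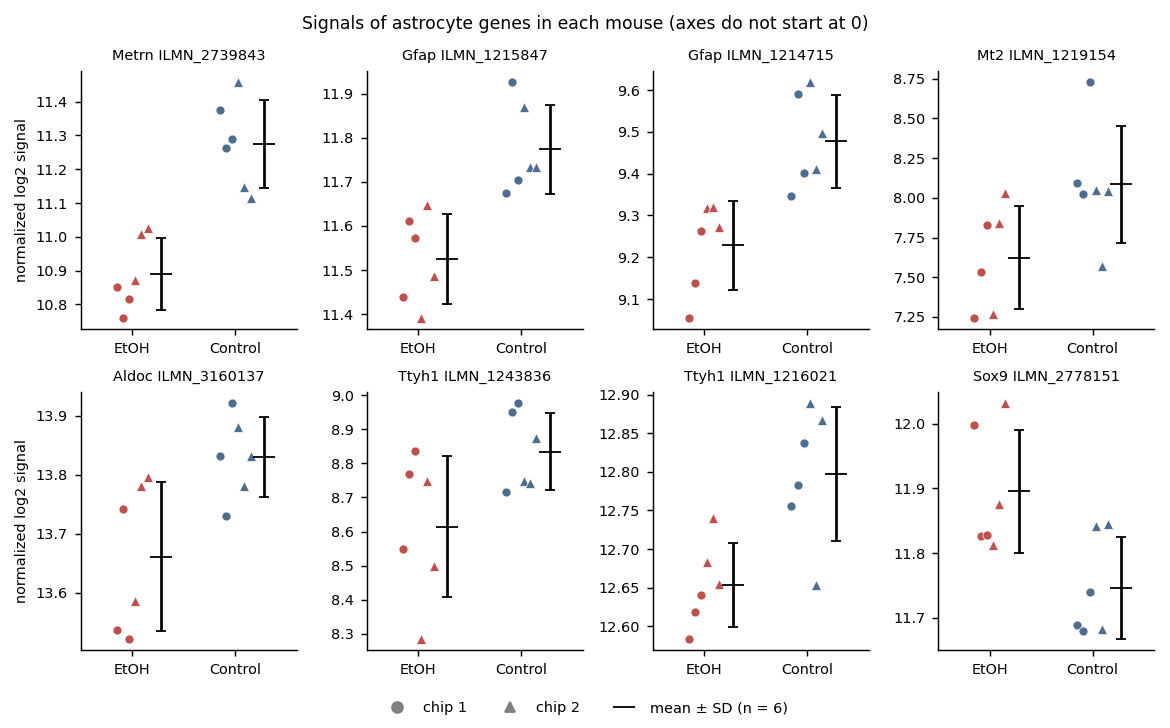
Normalized log2 signal (y axis, not starting at 0) of each of 6 EtOH and 6 Control mice at the 7 probes with an unadjusted p under 0.05 and at ILMN_2778151 of *Sox9*, with circles for chip 1, triangles for chip 2, and black bars for the mean ± SD. *Metrn* (10.76 to 11.02 in EtOH mice, 11.11 to 11.46 in Control mice) and both *Gfap* probes show no overlap, the other panels do, and *Sox9* alone has its EtOH mean on top.

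Among genes of the end-foot membrane and the gap junctions, *Ttyh1* was the one with an unadjusted p under 0.05. It encodes a tweety family membrane protein found at astrocyte processes. At ILMN_1216021 its log2 signals were 12.58, 12.65 and 12.74 (lowest, median, highest) in EtOH mice and 12.65, 12.81 and 12.89 in Control mice. Control mouse 5, at the low end, lay within the EtOH range, and the other 5 Control mice lay above it. The log2 fold change was −0.14 (SE 0.07, unadjusted p = 0.046, adjusted p = 0.759 in limma, exact permutation p = 0.0108). At ILMN_1243836 *Ttyh1* had 8.29, 8.65 and 8.83 in EtOH mice and 8.72, 8.81 and 8.98 in Control mice. The log2 fold change there was −0.22 (SE 0.10, unadjusted p = 0.0413, exact permutation p = 0.0476). The third probe of *Ttyh1*, ILMN_2448080, had −0.06 (SE 0.12, unadjusted p = 0.635), so the probes disagreed in size. The p of *Ttyh1* passed 0.05 when any of 10 mice was left out at ILMN_1216021 (highest p 0.0942) and any of 6 at ILMN_1243836 (highest p 0.107).

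*Aqp4*, the water channel of end-feet, had log2 signals of 10.42, 10.53 and 10.80 (lowest, median, highest) in EtOH mice and 10.38, 10.81 and 10.90 in Control mice at ILMN_2757232. All 6 EtOH mice lay below the Control median, but the lowest value of all was that of Control mouse 1. Its log2 fold change was −0.16 (SE 0.10, unadjusted p = 0.127). *Gja1*, the main connexin of astrocyte gap junctions, had 13.31, 13.37 and 13.56 in EtOH mice and 13.19, 13.43 and 13.55 in Control mice. For *Gja1* the log2 fold change was −0.0041, with a 95% interval between −0.18 and 0.17. *Gjb6*, a second astrocyte connexin, had −0.10 (SE 0.12), and *Hepacam*, an adhesion protein of astrocyte junctions, had 0.05 (SE 0.14).

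The transporters, pumps and receptors had no probe with an unadjusted p under 0.05. *Slc7a10*, a transporter of D-serine and other small neutral amino acids, had a log2 fold change of −0.20 (SE 0.11), and *Slc4a4*, the sodium bicarbonate cotransporter, had −0.15 at both tested probes (SE 0.09 and 0.14). *Slc39a12*, a zinc importer, had −0.04, and *Atp1b2*, a beta subunit of the sodium pump, had 0.10. Of the receptors, *Ntsr2* for neurotensin had −0.10 and *Gabrg1*, a gamma subunit of GABA-A receptors, had 0.21 (SE 0.12, unadjusted p = 0.108), the highest value over the list. *Fgfr3*, a fibroblast growth factor receptor, had −0.10 at ILMN_1257208 and 0.14 at ILMN_2590766. The latter probe, *Slc4a4* at ILMN_2776957 and the tested probe of *Gabrg1* were dim. Their intensity before normalization was at most 166.2, on arrays with medians of 94.7 to 127.5. Their values therefore say little about the sign of *Fgfr3*, the agreement of the *Slc4a4* probes or the rank of *Gabrg1*.

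Of the metabolic genes, *Aldoc*, which encodes the brain form of the glycolytic enzyme aldolase, had an unadjusted p under 0.05. At ILMN_3160137 its log2 signals were 13.52, 13.66 and 13.80 (lowest, median, highest) in EtOH mice and 13.73, 13.83 and 13.92 in Control mice. All 6 EtOH mice lay below the Control median, 3 of them below the lowest Control mouse. The log2 fold change was −0.17 (SE 0.07, unadjusted p = 0.0386, adjusted p = 0.759 in limma, exact permutation p = 0.0238), and the p passed 0.05 when any of 7 mice was left out (highest p 0.0881). The second probe, ILMN_2613349, had −0.12 (SE 0.19). *Aldh1l1*, a folate enzyme and widely used astrocyte marker, had 7.71, 8.21 and 8.47 in EtOH mice and 8.26, 8.35 and 8.56 in Control mice. EtOH mice 1, 2 and 4 lay below the whole Control range. Its log2 fold change was −0.23 (SE 0.12, unadjusted p = 0.0664).

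*Ppp1r3c*, a subunit that brings a phosphatase to glycogen, had a log2 fold change of −0.18 (SE 0.13), and Control mouse 4 had its highest signal, 12.49. Without that mouse the log2 fold change of *Ppp1r3c* was −0.08. *Acsbg1*, a fatty acyl-CoA synthetase, had −0.05 and −0.10 at its 2 probes, and *Cyp4f15*, a fatty acid hydroxylase, had 0.04. *Cst3*, the secreted protease inhibitor cystatin C, had −0.09 (SE 0.07, unadjusted p = 0.209). In 10 further glycogen genes that were tested, among them no member of the list, 8 were lower and 2 higher in EtOH mice, with none at an unadjusted p under 0.05 and a median of −0.05.

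The 3 metallothionein genes encode small cysteine-rich proteins that bind zinc and copper. *Mt1* and *Mt2* are induced by metals and glucocorticoids through the factor MTF1 and the glucocorticoid receptor, while *Mt3* is the brain form and is known for little response to metals. They lie next to each other on chromosome 8 in the order *Mt3*, *Mt2*, *Mt1*. Their promoters are shown because *Mt1* and *Mt2* moved together between mice, as described next. Each window is the 250 bases before the annotated start, from RefSeq on GRCm38.p6, plus strand, at chr8:94178839-94179088 for *Mt1*, chr8:94172368-94172617 for *Mt2* and chr8:94152357-94152606 for *Mt3*. Capitals mark each match to the core of the metal response element, spelled TGCACNC or TGCGCNC and searched on both strands.
Mt1: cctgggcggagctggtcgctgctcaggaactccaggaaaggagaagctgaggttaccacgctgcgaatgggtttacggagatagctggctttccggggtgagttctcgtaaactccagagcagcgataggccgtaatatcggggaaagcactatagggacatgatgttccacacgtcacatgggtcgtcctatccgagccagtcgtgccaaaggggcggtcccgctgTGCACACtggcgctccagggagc
Mt2: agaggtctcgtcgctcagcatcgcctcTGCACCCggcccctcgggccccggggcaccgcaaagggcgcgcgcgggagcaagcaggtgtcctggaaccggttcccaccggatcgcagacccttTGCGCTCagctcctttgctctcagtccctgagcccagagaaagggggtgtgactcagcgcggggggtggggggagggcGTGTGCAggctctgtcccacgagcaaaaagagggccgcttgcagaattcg
Mt3: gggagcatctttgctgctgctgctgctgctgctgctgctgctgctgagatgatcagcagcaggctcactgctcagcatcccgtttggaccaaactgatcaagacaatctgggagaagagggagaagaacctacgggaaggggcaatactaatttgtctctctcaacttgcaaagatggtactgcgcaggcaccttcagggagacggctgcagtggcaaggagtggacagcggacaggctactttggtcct
The *Mt2* window held 3 cores (2 on the plus and 1 on the minus strand), the *Mt1* window 1 and the *Mt3* window 0. These counts rest on 1 annotated start for each gene and depend on where it is set. Whether the start given for *Mt1* is the one used in this tissue is not known here. Of all 32851 promoter windows of 250 bases, 21.4% held at least 1 core and 1.26% at least 3. With the 50 bases after the start included, the counts were 4 for *Mt2*, 3 for *Mt1* and 1 for *Mt3*. Of 26 list genes with a window, 5 held at least 1 core. A match of letters is a description and not a bound site.

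*Mt2* had the lowest log2 fold change of the list, at a rather dim probe. Its intensity before normalization was 221.3 to 326.8 in EtOH mice and 266.2 to 503.4 in Control mice. At ILMN_1219154 its lowest, median and highest log2 signals were 7.25, 7.68 and 8.03 in EtOH mice and 7.57, 8.05 and 8.73 in Control mice. All 6 EtOH mice lay below the Control median, with EtOH mice 1, 2 and 4 below the lowest Control mouse and Control mouse 3 far above the others. The means were 7.62 ± 0.33 in EtOH mice and 8.09 ± 0.37 in Control mice (SD, n = 6 each), a log2 fold change of −0.46 or a ratio of 0.726 (SE 0.18, unadjusted p = 0.0203, adjusted p = 0.720 in limma, exact permutation p = 0.0433). Without EtOH mouse 1 the p was 0.0502, without EtOH mouse 4 it was 0.0505, and without the 3 mice high in choroid plexus markers the log2 fold change of *Mt2* was −0.34 (unadjusted p = 0.0744).

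*Mt1* had log2 signals of 14.98, 15.15 and 15.35 (lowest, median, highest) in EtOH mice and 15.05, 15.42 and 15.59 in Control mice at ILMN_2596522. *Mt3* had 11.81, 12.16 and 12.23 in EtOH mice and 12.10, 12.28 and 12.47 in Control mice at ILMN_2764651. At both, all 6 EtOH mice lay below the Control median and the groups overlapped. The log2 fold changes were −0.20 for *Mt1* (SE 0.11, unadjusted p = 0.0909) and −0.17 for *Mt3* (SE 0.09, unadjusted p = 0.0745).

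Across the 12 mice the log2 signals of *Mt1* and *Mt2* had a Pearson r of 0.75 (permutation p = 0.00406, adjusted p = 0.0203 over 5 relations) and a Spearman rho of 0.64 (permutation p = 0.027, adjusted p = 0.135). Without Control mice 2 and 3, the farthest from the median of *Mt1*, r was 0.70, and after the group means were taken out it was 0.66. Within chip 1 it was 0.83 and within chip 2 0.68 (6 mice each, adjusted permutation p = 0.153 and p = 0.218). The adjusted p of the pooled r was 0.0678 without EtOH mouse 4 and 0.0942 without Control mouse 3. The sequences of the probes were not analysed here, so whether either probe also binds RNA of the other gene was not tested. The r is therefore one of probe signals. The other relations did not pass: *Gfap* with *Vim* had r of 0.57 (rho 0.57, adjusted permutation p = 0.137 and p = 0.148), *Gja1* with *Gjb6* 0.27 (rho 0.13, adjusted p = 0.642 and p = 0.687), *Aldoc* with *Mt3* 0.19 (rho 0.15, adjusted p = 0.680 and p = 0.687), and *Mt2* with the glucocorticoid-induced gene *Fkbp5* −0.07 (rho −0.21, adjusted p = 0.841 and p = 0.687). With median scaling in place of quantile normalization the rho of *Gfap* with *Vim* and of *Aldoc* with *Mt3*, both 0.64, had an adjusted permutation p of 0.0496. *Mt2* with *Fkbp5* had opposite signs on the chips, with r of 0.43 on chip 1 and −0.82 on chip 2 (adjusted permutation p = 0.662 and p = 0.215).

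**Figure D3:**
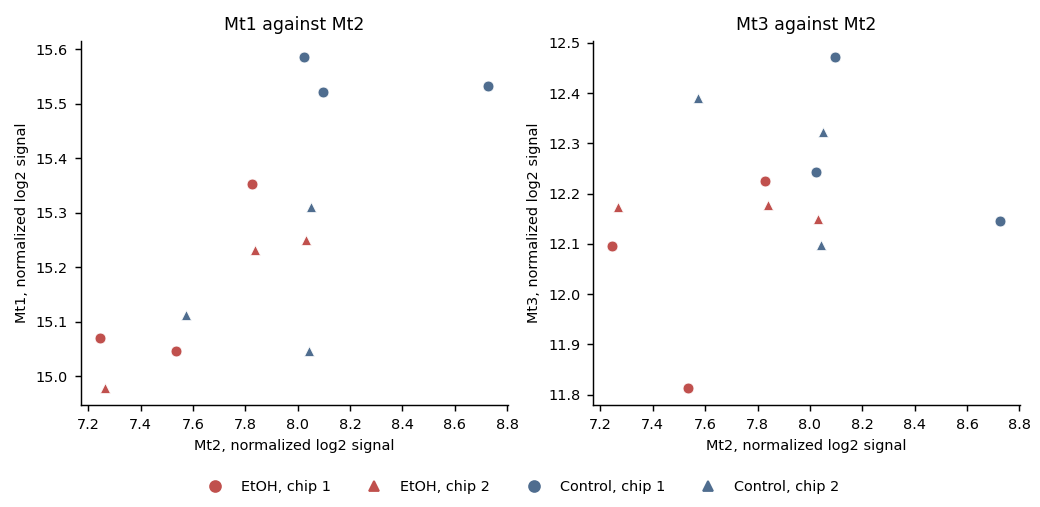
Normalized log2 signal of *Mt1* (left, y axis) and *Mt3* (right, y axis) against that of *Mt2* (x axis) in 6 EtOH mice (red) and 6 Control mice (blue), with circles for chip 1 and triangles for chip 2. *Mt1* and *Mt2* lie along a rising line (r of 0.75), with the 3 Control mice of chip 1 at the top, whereas the points of *Mt3*, for which no r was computed with *Mt2*, are scattered, with EtOH mouse 2 lowest at 11.81.

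The 2 chips gave the same sign at 28 of 35 probes, and 22 were negative on both. Some genes have several of these probes, and the shares over all tested probes are not given, so these counts only describe the list. The median log2 fold change over the genes was −0.19 on chip 1 and −0.04 on chip 2. *Gfap* had −0.23 and −0.29 on chip 1 and −0.27 and −0.21 on chip 2, and *Metrn* had −0.50 on chip 1 and −0.27 on chip 2. *Mt2* had −0.75 on chip 1 and −0.18 on chip 2, and *Mt1* had −0.39 on chip 1 and −0.0034 on chip 2. Of the 35 probes, 1 (*Mt1*) had an interaction of group and chip with an unadjusted p under 0.05. The share over all probes is not given for this count, so it does not set *Mt1* or the list apart. After adjustment over all probes in limma the interaction p of *Mt1* was 0.789, and 0 probes of the array had one under 0.05. *Id3* had −0.55 on chip 1 and 0.02 on chip 2. For a difference between the chips themselves, 0 of 35 probes had an adjusted p under 0.05 in limma, beside 86 of all 19288 tested probes. With so few over the whole array, the 0 says nothing particular about the astrocyte genes.

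**Figure D4:**
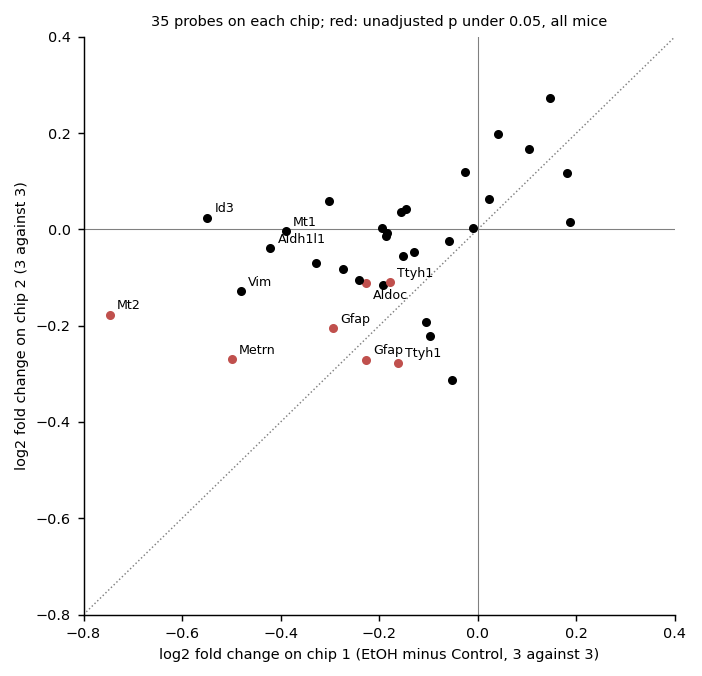
Log2 fold change (EtOH minus Control) of the 35 tested astrocyte probes on chip 1 (x axis) and on chip 2 (y axis), 3 EtOH against 3 Control mice on each, with the 7 probes at an unadjusted p under 0.05 in red and a dotted line of equality. Of the points, 22 lie below 0 on both axes, and *Mt2* (−0.75 and −0.18), *Id3*, *Mt1* and *Aldh1l1* lie farther from 0 on chip 1 than on chip 2.

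The other astrocyte genes had a median near 0. Of 20 further markers, *Slc1a2*, *Slc1a3* and *Glul* among them, 19 were tested, 11 lower and 8 higher in EtOH mice, with a median of −0.01. *Apoe*, the lipid carrier that astrocytes secrete, had −0.22 (SE 0.08) and *Lcat*, the enzyme that esterifies cholesterol on its particles, had −0.26 (SE 0.08), and these 2 were the genes with an unadjusted p under 0.05. The glutamate transporter genes *Slc1a2* and *Slc1a3* had log2 fold changes of −0.16 and −0.01. Of 20 genes known to be induced in reactive astrocytes, 10 were tested, *Serpina3n* among them but not *Lcn2*. These 10 were 6 lower and 4 higher, with none at an unadjusted p under 0.05 and a median of −0.01. Without the 3 mice high in choroid plexus markers the medians were −0.06 for the further markers and 0.05 for the reactive genes, and *Apoe* and *Lcat* were again the genes with an unadjusted p under 0.05.

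Genes of the pathways that act on members of the list were counted in the same way. Of 12 glucocorticoid-induced genes, all tested, 9 were lower and 3 higher (median −0.13), and *Sgk1*, a kinase, had −0.43, *Per1*, a clock gene, −0.22 and *Zbtb16*, a transcription factor, −0.28, each with an unadjusted p under 0.05. Of 15 tested zinc handling genes, 5 were lower and 10 higher (median 0.02). *Slc30a1*, the zinc exporter that MTF1 induces together with the metallothioneins, had −0.27 (SE 0.11), and *Slc39a10*, a zinc importer, had 0.34 (SE 0.15), both with an unadjusted p under 0.05. Of 9 tested Id and BMP genes, 5 were lower and 4 higher (median −0.02), and *Id1* had −0.49 (SE 0.13), *Id4* −0.23 (SE 0.11) and *Smad5* −0.21 (SE 0.09), each with an unadjusted p under 0.05. *Id1* and *Id4* encode inhibitors related to *Id3*, and *Smad5* a transducer of BMP signals. None of these passed the adjustment over all probes. Without the 3 mice high in choroid plexus markers, *Slc30a1* and *Id1* kept an unadjusted p under 0.05 and the other genes named here did not. The glucocorticoid-induced genes then were 7 lower and 5 higher (median −0.06).

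Other cell types in the tissue were measured beside the astrocyte genes. Per mouse, the mean log2 signal of the 27 tested astrocyte genes was 10.22 to 10.46 (median 10.30) in EtOH mice and 10.34 to 10.51 (median 10.46) in Control mice. EtOH mice 1, 2 and 4 lay below each Control mouse, and EtOH mice 3, 5 and 6 lay within the Control range. The 7 tested neuron markers were all higher in EtOH mice, with a median of 0.10 and *Syt1*, a synaptic vesicle protein, at 0.15 and an unadjusted p under 0.05. The 8 tested hippocampal neuron markers had a median of 0.08 (6 higher and 2 lower). The oligodendrocyte markers had a median of −0.12 (6 of 9 lower, *Mobp* with an unadjusted p under 0.05), the microglia markers −0.10 (10 of 13 lower, *Fcrls* and *C1qc* with an unadjusted p under 0.05), the endothelial markers −0.01 (6 of 11 lower) and the meningeal fibroblast markers −0.11 (5 of 8 lower). Without the 3 mice high in choroid plexus markers the neuron markers were again all higher (median 0.11), while the medians of the hippocampal neuron markers (−0.04) and of the meningeal fibroblast markers (0.13) changed sign. The microglia markers were then all lower (13 of 13, median −0.18).

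The 5 choroid plexus markers were all lower in EtOH mice (median −1.12, none at an unadjusted p under 0.05), with a mean level of 6.30 to 9.71 in EtOH mice and 6.50 to 11.30 in Control mice. Of 8 tested ependymal markers 7 were lower (median −0.71) and 5, *Rarres2*, *Dynlrb2*, *Tekt1*, *Mlf1* and *Cfap126*, had an unadjusted p under 0.05. Their mean level was 6.35 to 6.94 in EtOH mice and 6.63 to 8.44 in Control mice, highest in Control mice 3 and 1. Without the 3 mice the median was −0.16 for the choroid plexus and −0.37 for the ependymal markers, with *Mlf1* and *Cfap126* still under an unadjusted p of 0.05. Ependymal and choroid plexus cells also express several genes of the list, such as *Vim*, *Mt1*, *Mt2*, *S100b*, *Clu* and *Id3*. Their part in the astrocyte values was not tested beyond leaving out the 3 mice (5 EtOH against 4 Control mice). In that setting both *Gfap* probes and *Metrn* stayed under an unadjusted p of 0.05, while *Mt2*, *Aldoc* and *Ttyh1* did not. The log2 fold change of *Aldoc* at ILMN_3160137 was −0.17 there, beside −0.17 with all mice. *Ttyh1* had −0.16 at ILMN_1216021 and −0.24 at ILMN_1243836, beside −0.14 and −0.22 with all mice. *Mt2* had −0.34, beside −0.46 with all mice. *Ppp1r3c* (−0.35) and *Slc4a4* at the dim probe ILMN_2776957 (−0.39) came under an unadjusted p of 0.05 there.

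**Figure D5:**
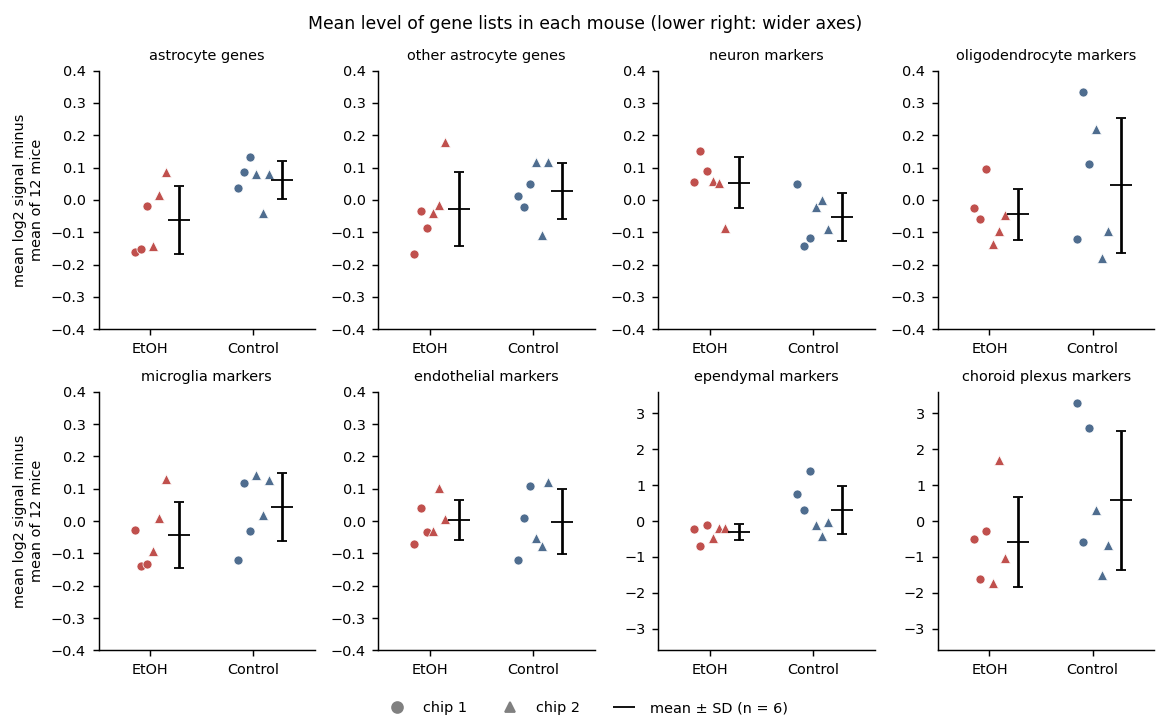
Mean log2 signal over the tested genes of 8 lists in each mouse, minus the mean of the 12 mice (y axis, wider for the ependymal and choroid plexus markers), in 6 EtOH (left) and 6 Control mice (right), with black bars for the mean ± SD. Astrocyte genes average lower (10.31 ± 0.10 in EtOH mice, 10.44 ± 0.06 in Control mice) and neuron markers higher in EtOH mice, and the choroid plexus markers stand high in Control mice 1 and 3 and in EtOH mouse 5.

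The spread of the astrocyte genes between mice of one group is given as the residual SD of the limma fit on the log2 scale. It ran between 0.07 (*Ttyh1* at ILMN_1216021) and 0.39 (*S100b*), with a median of 0.17 beside 0.19 over all tested probes, and 15 of 35 probes lay above that overall median. *Sox9*, *Cst3* and *Gfap* had residual SDs of 0.09, 0.08 and 0.10 at their brightest probes, and *Mt2*, *Id3* and *S100b* 0.35, 0.38 and 0.39. The former were bright, at ranks 37 to 1360 of 45281 probes by mean signal, and the latter dimmer, at ranks 9494 to 13767. This SD may hold measurement noise as well as differences between mice, and these were not told apart.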

How the data were processed

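The data are 12 MouseWG-6 v2.0 arrays, 1 for the hippocampus of each of 6 EtOH and 6 Control mice. The authors summarised the beads in GenomeStudio (version 1.9.0 per the submitters' processing notes) and deposited a table of intensity before normalization, on a linear scale and not background-subtracted. Beside each intensity stands its detection p-value, deposited with it. A second table holds the authors' quantile normalized intensity, within 0.956% of quantile normalization of the first, and served as an alternative. Here the intensities were corrected with limma 3.58.1 (R 4.3.3) by normexp, with negative controls inferred from detection (offset 16), then quantile normalized between arrays and transformed to log2. Quantile normalization assumes like distributions on all arrays, so values are relative to other probes.

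Of 45281 probes, 34885 carry 1 gene symbol in the platform annotation, 18 several and 10378 none, and 34807 symbols were matched by gene identifier to the mouse gene table, with 0 changed. The 19288 probes detected (p under 0.05) on 6 or more arrays were compared by limma on group alone, as EtOH minus Control, with Benjamini-Hochberg adjustment over all of them. A p given as unadjusted comes from that fit. A list counts the brightest tested probe of each gene, and members are given at all probes. The means of single probes were also compared by exact permutation, two-sided, over all splits of the 12 arrays. Correlations used 100000 permutations (exact within a chip). A relation of *Mlc1* with *Hepacam* was planned and not run, as *Mlc1* missed the filter. The fit was tested on simulated data, with changes all larger than those of the astrocyte genes. That test does not cover changes of their size.

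The members and lists were chosen with earlier results of these data known. All members are named. Values per group are given for those with an unadjusted p under 0.05, for the 6 defining markers and for the metallothioneins. Of other lists, counts, medians and the genes with an unadjusted p under 0.05 are given. Residual SDs, highest values and motif counts were chosen for the text after they were seen. Alternatives changed the background correction, offset (50), normalization, table, filter, detection threshold (0.01), chip, replicate block, moderation and array weights, and left out each mouse. The number of arrays limits the precision.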

Additional observations from a re-analysis of the deposited data

Results flagged for a closer look

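In *Cst3* at ILMN_1257575, Control mouse 3 had a log2 signal of 14.88, apart from the other 5 Control mice at 15.01 to 15.09. In *Mt3* at ILMN_2764651, EtOH mouse 2 had 11.81, apart from the other 5 EtOH mice at 12.10 to 12.23. Each was far from its nearest neighbour against the range of its group (Dixon's test), which chance does in about 1 of 20 groups, and 2 of the 70 sets of a probe and a group did so.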

How the results depend on the processing

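No probe of the array passed an adjusted p under 0.05 in limma in any setting, with 1242 probes at an unadjusted p under 0.05 in the values reported. The number of astrocyte probes at an unadjusted p under 0.05 (7, or 20% beside 6.44% of all) was 12 with no background correction and 12 in the authors' normalized table (34.3% beside 7.02%), 11 with trend and robust moderation (31.4% beside 6.98%), 1 on chip 2 alone (2.86% beside 4.75%) and 3 to 9 with each mouse left out. Past a fold of 1.5 it was 1 on chip 1 alone, against 0. The median log2 fold change over the genes was −0.040 on chip 2 alone, and −0.18 to −0.11 with each mouse left out. With the replicate number as a block the count was 7 (6 lower, 1 higher), but *Aldoc* (ILMN_3160137) and *Ttyh1* (ILMN_1216021) left it and *Vim* and *Gabrg1* (higher) entered. The labels name no pairs, so equal replicate numbers were not taken as pairs. Correlations of same-numbered mice were −0.02 to 0.21, over 0.1 in 3 of 6 pairs, and 5 of 12 mice correlated best with their own number. Same-numbered mice also lay on the same chip, so these values cannot tell a pairing from a shared chip. Median scaling gave a median over all probes of −0.04, a shift of −0.05, and 147 higher and 637 lower probes at an unadjusted p under 0.05, against 648 and 594. The astrocyte count was again 7, but *Aldoc* and *Ttyh1* at the same probes left it and *Aldh1l1* and *Vim* entered. Of the 35 probes, 27 kept their sign in each setting, all 7 with an unadjusted p under 0.05 among them. On chip 2 alone *Gja1* had 0.0020, *Fgfr3* (ILMN_1257208) 0.0019, *Aldoc* (ILMN_2613349) 0.059, *Acsbg1* (ILMN_2788036) 0.043, *Ttyh1* (ILMN_2448080) 0.036 and *Id3* 0.024. *Hepacam* had −0.026 on chip 1 alone and −0.0051 with median scaling, *Cyp4f15* −0.022 with median scaling, and *Ttyh1* (ILMN_2448080) 0.0055 without the 3 mice high in choroid plexus markers, a setting chosen after seeing the data. With each mouse left out *Gja1* ran between −0.050 and 0.023, *Ttyh1* (ILMN_2448080) between −0.11 and 0.036, *Hepacam* between −0.014 and 0.14 and *Cyp4f15* between −0.017 and 0.088. The r of *Mt1* with *Mt2* was 0.83 on chip 1 and 0.68 on chip 2 and 0.69 to 0.84 with each mouse left out. That of *Mt2* with *Fkbp5* was 0.43 on chip 1, −0.82 on chip 2 (rho −0.94, adjusted permutation p = 0.0833) and 0.0029 with median scaling, and −0.22 to 0.027 with each mouse left out. With median scaling *Aldoc* with *Mt3* had r of 0.59 and rho of 0.64 (adjusted permutation p = 0.0741 and p = 0.0496), *Gfap* with *Vim* 0.65 and 0.64 (p = 0.0565 and p = 0.0496) and *Mt1* with *Mt2* 0.73 and 0.69 (p = 0.0374 and p = 0.0496). *Gja1* with *Gjb6* had r of 0.50 with median scaling and 0.77 on chip 2 (adjusted permutation p = 0.119 and p = 0.218). The cause of these changes was not tested, but a single chip holds fewer mice.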
